A study of Homo sapiens with 15 samples.

Results

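The genes described here encode collagens and linker proteins of the basement membrane, the thin sheet of matrix on which epithelial cells rest. They are the 10 rows of a count table of 58735 genes whose Ensembl identifiers map to COL4A1, COL4A2, COL4A3, COL4A4, COL4A5, COL4A6, COL15A1, COL18A1, NID1 and HSPG2. The table covers 15 cell line-derived xenograft (CDX) tumors of cholangiocarcinoma (CCA), a cancer of the bile ducts, 5 of each line: HuCC-A1, EGI-1, HuCC-T1. HuCC-A1 and HuCC-T1 are human CCA lines of intrahepatic origin, and EGI-1 is an extrahepatic human CCA line. All tumors grew in immunodeficient NRG mice (NOD Rag1-/- IL2Rgc-/-), which lack lymphocytes but keep their own fibroblasts, vessels and myeloid cells. The mice received phosphate-buffered saline (PBS) intraperitoneally once per week, for 6 weeks with HuCC-A1 tumors and for 4 weeks with EGI-1 tumors, while the labels state no duration for the HuCC-T1 model. The study asks how tumors with a high and a low response to an antibody against CLDN1 differ, and each model rests on 1 cell line, so that line, duration of the vehicle and any other trait of a model cannot be told apart.

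Type IV collagen forms the network of every basement membrane. Its chains wind around each other in heterotrimers, and COL4A1 with COL4A2, COL4A3 with COL4A4 and COL4A5, and COL4A5 with COL4A6 are the known combinations. The first is found in nearly all basement membranes, whereas the others are restricted to certain tissues and are best known from kidney, lung, skin and smooth muscle. COL15A1 and COL18A1 encode collagens with attached glycosaminoglycan chains that sit at basement membranes and release antiangiogenic fragments (endostatin from COL18A1). NID1 encodes nidogen, which links laminin to type IV collagen, and HSPG2 encodes perlecan, a large heparan sulfate proteoglycan that binds growth factors and several matrix proteins. Bile ducts rest on such a membrane, and invasive carcinoma cells cross it.

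The type IV collagen genes lie in head-to-head pairs, so that each pair is transcribed in opposite directions from a shared stretch of DNA. In GRCh38 coordinates from GENCODE release 29, COL4A1 lies on chromosome 13 from 110148963 to 110307233 (minus strand) and COL4A2 from 110305812 to 110513209 (plus strand). COL4A4 occupies positions 227002711 to 227164453 of chromosome 2 (minus strand), with COL4A3 at 227164565 to 227314792 (plus strand). COL4A6 spans 108155607 to 108439497 of chromosome X (minus strand), beside COL4A5 at 108439844 to 108697545 (plus strand). COL15A1 is on chromosome 9 (98943179 to 99070792), COL18A1 on chromosome 21 (45405137 to 45513720), and NID1 (235975830 to 236065162) and HSPG2 (21822245 to 21937297) are both on chromosome 1.

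Sequence between the paired starts is shown because the ratio of the paired chains is one of the measurements below. The sequences come from the RefSeq promoter windows of GRCh38.p14, in which all 10 genes were found, and are written 5′ to 3′ on the plus strand. Capitals mark a CCAAT box (CCAAT or its reverse complement ATTGG). The first is a 30-base stretch of the 126 bases between the RefSeq starts of COL4A1 and COL4A2, at chr13:110307174-110307203, where GENCODE transcripts of the genes leave only 2 bases free of exons. This stretch was placed around the CCAAT box, so that the box lies in it by choice. The second is the 159-base exon-free part of the 418 bases between COL4A4 and COL4A3, at chr2:227164237-227164395. The third is the 250 bases before the start of COL4A5, at chrX:108439588-108439837, out of 379 bases between it and the nearer start of COL4A6.
COL4A1/COL4A2: gctccCCAATttgttggcgctgccccctcc
COL4A4/COL4A3: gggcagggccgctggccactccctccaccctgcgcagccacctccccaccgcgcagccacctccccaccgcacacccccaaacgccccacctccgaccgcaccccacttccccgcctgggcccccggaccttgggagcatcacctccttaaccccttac
COL4A6/COL4A5: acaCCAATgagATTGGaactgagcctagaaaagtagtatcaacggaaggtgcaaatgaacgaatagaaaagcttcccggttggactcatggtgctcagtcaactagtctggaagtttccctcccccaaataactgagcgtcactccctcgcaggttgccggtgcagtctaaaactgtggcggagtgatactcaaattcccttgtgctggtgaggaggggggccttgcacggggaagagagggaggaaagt

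The CCAAT box was found on either strand in the 300-base windows of COL4A1, COL4A2, COL4A5, the nearer start of COL4A6 and NID1, and in 34.6% of all 35116 RefSeq windows. The windows of COL4A1 and COL4A2 overlap and hold the same copy, and those of COL4A5 and COL4A6 overlap as well. The GC box, searched as GGGCGG and CCGCCC, was in the windows of COL4A1, COL4A2, COL4A3, COL15A1, NID1, HSPG2, both starts of COL18A1 and the farther start of COL4A6, and in 45.0% of all windows. It occurred 9 times in the upstream window of COL18A1 and 10 times in that of HSPG2. The motif TATAAA was in 11.5% of all windows and, among these genes, in the downstream start of COL18A1. The windows of COL4A5 and of the nearer start of COL4A6 were 49.3% and 43.7% G and C, against 76.7% for COL4A1, 83.3% for HSPG2 and a median of 58.7% over all windows. A match of letters is a description and does not show that a factor binds there.

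Levels are given as CPM, that is, counts divided by the library total after TMM scaling and brought to a common total. Total counts per tumor ranged from 20001412 to 33585265 in HuCC-A1, from 34239460 to 44067878 in EGI-1 and from 26163778 to 33984103 in HuCC-T1. A count of 0 in 1 library allows up to 3 counts, which is 0.0799 to 0.150 CPM in HuCC-A1, 0.0690 to 0.0914 CPM in EGI-1 and 0.0933 to 0.112 CPM in HuCC-T1, for counting error only. Differences between models were tested with edgeR on the 21019 genes that passed its filter on low counts, and a called gene is one whose p, after Benjamini-Hochberg adjustment, was under 0.05. Of the 10 genes, 9 passed the filter, and COL15A1 did not. The filter keeps a gene that is high in a single model, so the 9 genes had a higher chance of differing than all 10. Log2 fold changes are those of the fit. Their standard error (SE) was taken as the size of the fold change over the square root of its F statistic. Where a model held few counts, such as COL4A5 in EGI-1 tumors, this SE is too small to cover the counting error. In these bulk tumors, fewer cells of a type and less RNA per cell cannot be told apart.

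The models differed in which basement membrane genes they expressed. COL4A5 and COL4A6 were the abundant type IV chains of HuCC-A1 tumors, COL4A5 was that of HuCC-T1 tumors, and EGI-1 tumors held 15 counts of these chains in all 5 libraries. COL4A1 was found mainly in HuCC-T1 tumors. COL18A1 had its highest level in HuCC-T1 and its lowest in HuCC-A1 tumors, and HSPG2 was abundant in every tumor and was called in none of the 3 comparisons.

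Between HuCC-A1 and EGI-1 tumors, 4 of the 9 tested genes (COL4A3, COL4A5, COL4A6 and NID1) were higher in HuCC-A1, 2 (COL4A2 and COL18A1) were lower and 3 (COL4A1, COL4A4 and HSPG2) did not pass the test. Over all tested genes, 55.4% were called, 29.4% as higher and 26.0% as lower. COL4A4, COL4A5 and COL4A6 were higher in HuCC-A1 than in HuCC-T1 tumors, COL4A1, COL4A2 and COL18A1 were lower, and COL4A3, NID1 and HSPG2 did not pass. In that comparison 56.3% of all tested genes were called, 29.1% as higher and 27.2% as lower. HuCC-T1 against EGI-1 tumors gave 7 higher genes (COL4A1, COL4A2, COL4A3, COL4A5, COL4A6, COL18A1 and NID1), 1 lower gene (COL4A4) and 1 that did not pass (HSPG2), where 52.3% of all tested genes were called, 27.3% as higher and 25.0% as lower. Shares of 6, 6 and 8 out of 9 genes stand beside a background in which over 1 in 2 genes were called, so that being called is no particular trait of these genes. The fitted changes were of median size 2.24, 1.84 and 3.24 on the log2 scale in the 3 comparisons, regardless of sign, against 0.79, 0.80 and 0.74 over all tested genes. Several of these changes rest on few counts, such as 3 of COL4A1 and 2 of COL4A5 in EGI-1 tumors. The genes were also chosen with earlier results of these data known, so the larger sizes are a description and were not tested. COL4A2, COL4A5, COL4A6 and COL18A1 were called in all 3 comparisons, each pair of which shares the tumors of a model.

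**Figure D1:**
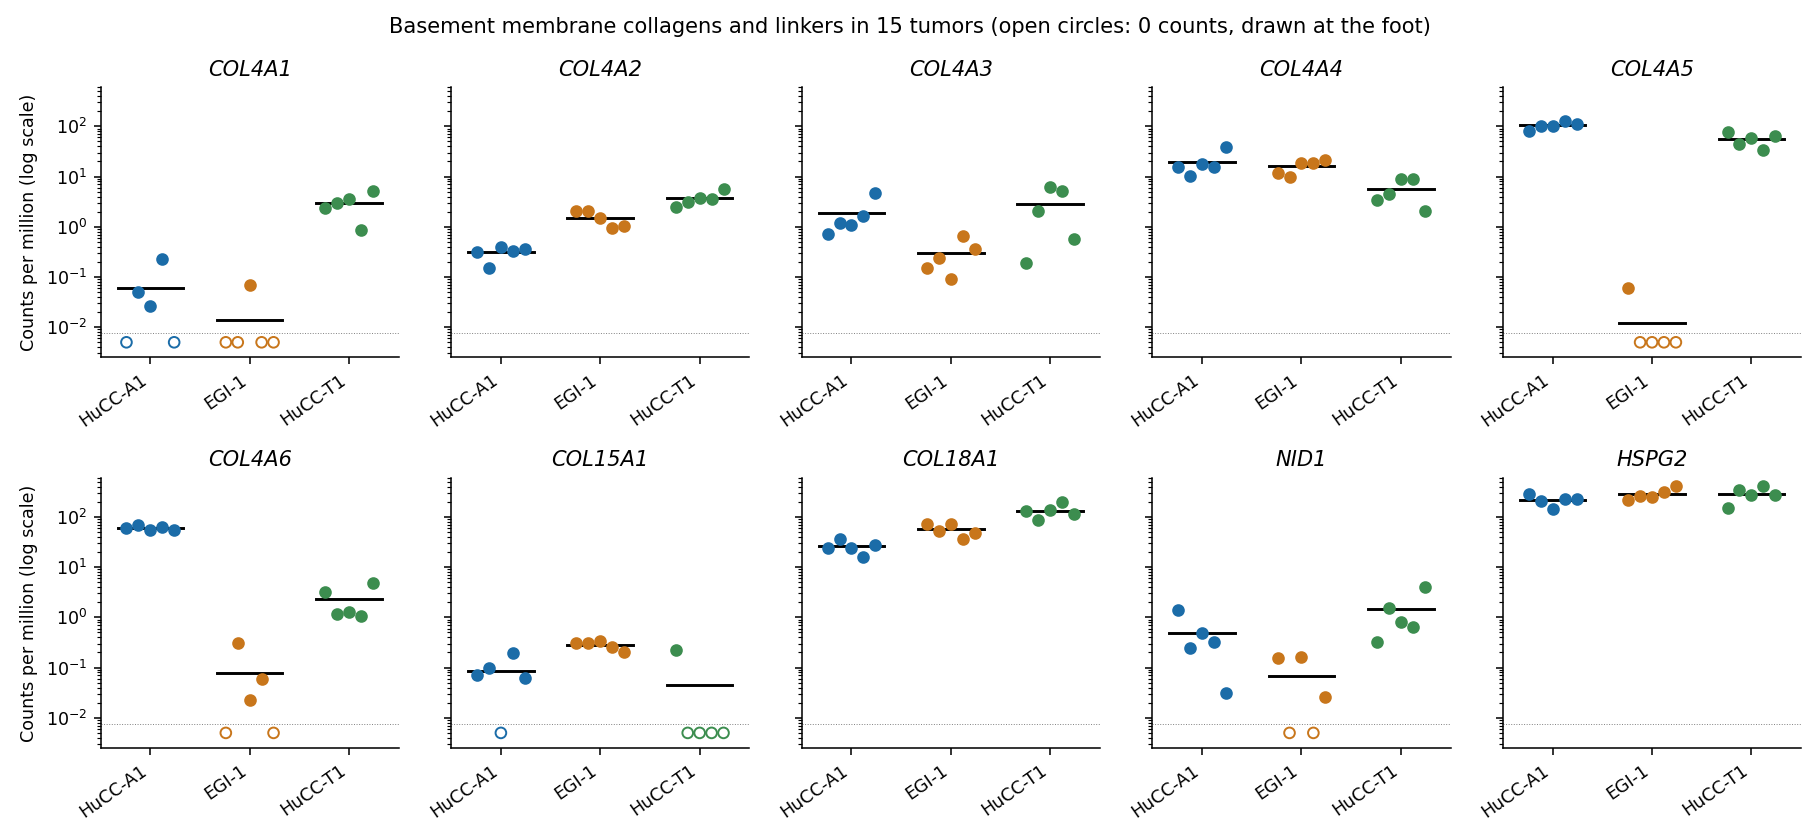
CPM (log axis) of the 10 genes in each of the 15 tumors. Each point is a tumor, the line is the mean of the 5 tumors of a model, and open circles at the foot are tumors with 0 counts. COL4A5 lies between 33.3 and 127 CPM in HuCC-A1 and HuCC-T1 tumors and at 0 counts in 4 of 5 EGI-1 tumors, while the HSPG2 points of the 3 models overlap.

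**Figure D2:**
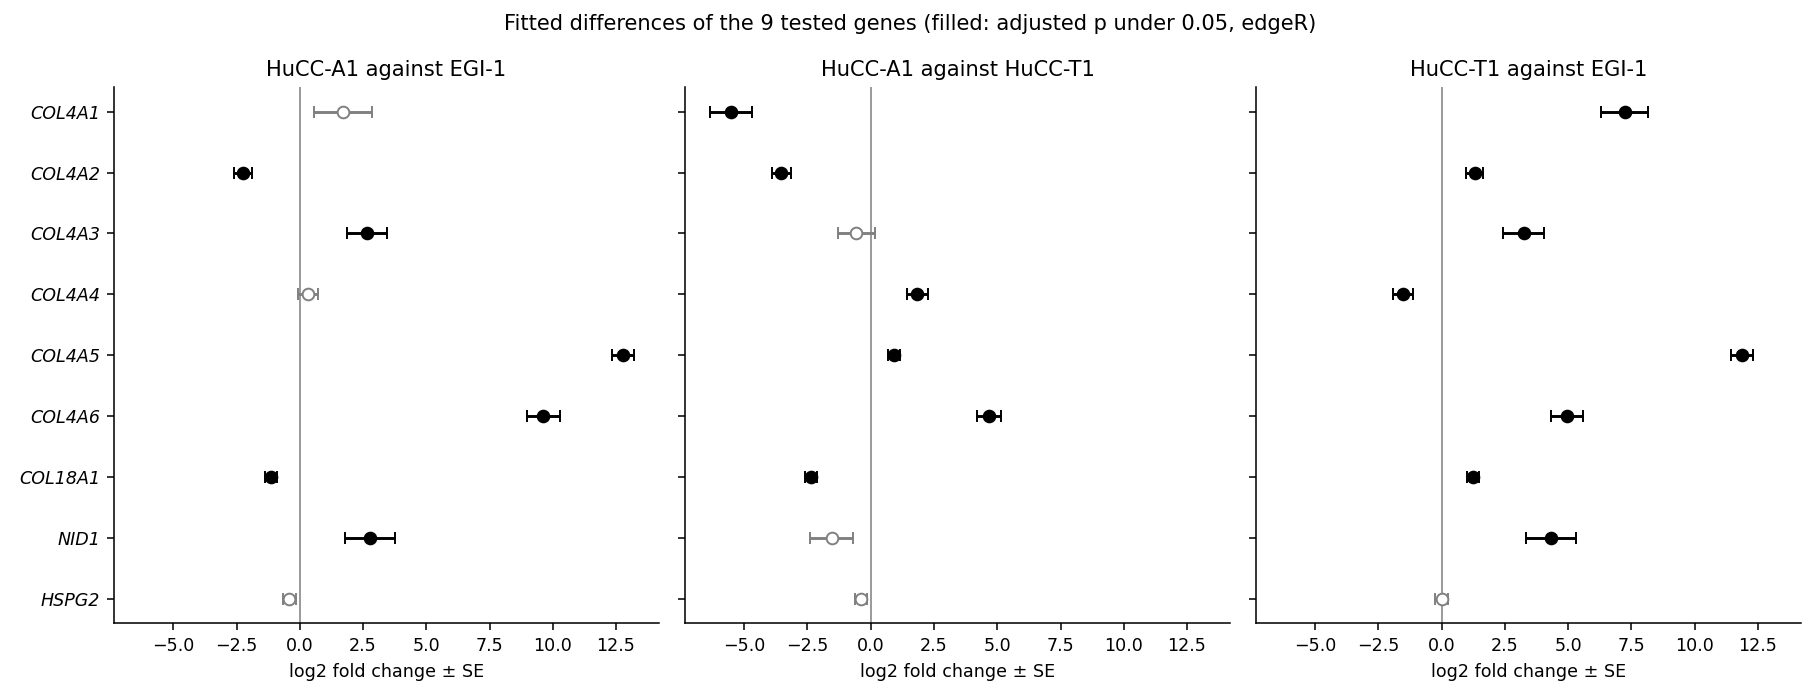
Fitted log2 fold changes (horizontal axis, with SE bars) of the 9 tested genes in the 3 comparisons, filled where the adjusted p of edgeR was under 0.05. COL4A5 has the farthest points, at 12.78 and 11.86 against EGI-1, and HSPG2 lies between -0.41 and -0.01 in all panels.

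COL4A1 and COL4A2, the chains of the widespread collagen network, were at low levels in all models and highest in HuCC-T1 tumors. COL4A1 had 2.36, 2.97, 3.51, 0.882 and 5.16 CPM in HuCC-T1 replicates 1 to 5. In HuCC-A1 tumors it had 0, 1, 1, 7 and 0 counts, and in EGI-1 tumors 3 counts, all in replicate 3. Every HuCC-T1 tumor was above every tumor of the other models. The mean level in HuCC-T1 tumors was 2.98 ± 1.57 CPM (SD, n = 5). From the summed counts over the summed scaled totals, it was 184 times that in EGI-1 tumors (95% counting interval of the ratio 62.5 to 895) and 50.1 times that in HuCC-A1 tumors (26.2 to 110). These intervals cover counting error only and leave out the spread between tumors. The fitted log2 fold changes were 7.23 (SE 0.94, adjusted p = 6.08e-06, edgeR) against EGI-1 and, for HuCC-A1 against HuCC-T1, -5.54 (SE 0.83, adjusted p = 2.35e-05, edgeR). The first was 9.54 without EGI-1 replicate 3 and the second -7.20 without HuCC-A1 replicate 4, which held most of the counts of their models. HuCC-A1 against EGI-1 compared 9 with 3 counts and did not pass (log2 fold change 1.70, adjusted p = 0.222, edgeR). Without EGI-1 replicate 3 it was 4.00 with an adjusted p of 0.0472, and without HuCC-A1 replicate 4 it was 0.05 with an adjusted p of 0.981.

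COL4A2 followed another order. It had 0.318, 0.150, 0.399, 0.322 and 0.368 CPM in HuCC-A1 replicates 1 to 5, from 3 to 15 counts. EGI-1 tumors had 2.07, 2.02, 1.52, 0.931 and 1.05 CPM, and HuCC-T1 tumors had 2.52, 3.14, 3.66, 3.63 and 5.69 CPM. The models did not overlap, with HuCC-A1 lowest and HuCC-T1 highest. Accordingly COL4A2 was lower in HuCC-A1 tumors than in EGI-1 by 2.24 on the log2 scale (log2 fold change -2.24, SE 0.36, adjusted p = 4.46e-05, edgeR). The fold change of HuCC-A1 against HuCC-T1 was -3.54 (SE 0.37, adjusted p = 3.84e-07) and that of HuCC-T1 against EGI-1 was 1.30 (SE 0.33, adjusted p = 0.00292). EGI-1 tumors thus held 274 counts of COL4A2 beside 3 counts of its partner COL4A1.

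COL4A3 and COL4A4 encode chains that join COL4A5 in the network of the kidney glomerulus and some other epithelia. COL4A4 was the more abundant of the 2 in every tumor, also per length. It had 15.8, 10.4, 17.8, 15.8 and 39.7 CPM in HuCC-A1 replicates 1 to 5 and 11.5, 9.88, 18.8, 18.8 and 21.0 CPM in EGI-1 tumors. HuCC-T1 tumors had 3.35, 4.49, 9.08, 8.78 and 2.08 CPM. HuCC-A1 and EGI-1 overlapped, and every HuCC-T1 tumor was below every tumor of both. The difference of HuCC-A1 against EGI-1 did not pass (log2 fold change 0.31, SE 0.39, adjusted p = 0.517, edgeR), and its sign rested on HuCC-A1 replicate 5, since it was -0.10 without that tumor. COL4A4 was 3.59-fold higher in HuCC-A1 than in HuCC-T1 tumors (log2 fold change 1.84, SE 0.41, adjusted p = 0.000936, edgeR). HuCC-T1 tumors had less of it than EGI-1 tumors (log2 fold change -1.53, SE 0.40, adjusted p = 0.00414, edgeR).

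COL4A3 varied widely among tumors of the same model. It had 0.192, 2.04, 6.13, 5.18 and 0.560 CPM in HuCC-T1 replicates 1 to 5, a 32.0-fold range. In HuCC-A1 tumors it had 0.707, 1.20, 1.09, 1.64 and 4.75 CPM, and in EGI-1 tumors 0.152, 0.242, 0.0920, 0.640 and 0.358 CPM. All HuCC-A1 tumors were above all EGI-1 tumors, whereas HuCC-T1 replicates 1 and 5 lay within the EGI-1 range. AC097662.1, an antisense gene on the opposite strand, shares 120 exon bases (1.32%) of COL4A3. Its level was 1.22 ± 0.370, 0.272 ± 0.155 and 0.476 ± 0.177 CPM in HuCC-A1, EGI-1 and HuCC-T1 tumors (SD, n = 5). How far shared reads enter COL4A3 was not tested. COL4A3 was higher in HuCC-A1 tumors than in EGI-1 (log2 fold change 2.66, SE 0.81, adjusted p = 0.00957, edgeR), with 1.96 and an adjusted p of 0.0435 without HuCC-A1 replicate 5. It was also higher in HuCC-T1 than in EGI-1 tumors (log2 fold change 3.24, SE 0.82, adjusted p = 0.00303, edgeR). HuCC-A1 against HuCC-T1 did not pass (log2 fold change -0.58, SE 0.73, adjusted p = 0.519, edgeR), and this fold change was -1.28 without HuCC-A1 replicate 5. HuCC-T1 replicates 3 and 4 had the highest and replicates 1 and 5 the lowest levels of COL4A3 and COL4A4 in their model, and HuCC-A1 replicate 5 was the highest HuCC-A1 tumor for both, whereas the order of the EGI-1 tumors and the lowest HuCC-A1 tumor differed between the genes.

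COL4A5 showed the widest gap between models of all 10 genes. It encodes the chain shared by both of the restricted type IV networks, and its loss causes Alport syndrome. HuCC-A1 tumors had 82.6, 103, 102, 127 and 109 CPM in replicates 1 to 5, from 2065 to 3934 counts. HuCC-T1 tumors had 75.7, 45.3, 59.6, 33.3 and 63.0 CPM, and EGI-1 tumors had 2 counts in replicate 1 and 0 counts in the other 4 libraries. All HuCC-A1 tumors were above all HuCC-T1 tumors, which in turn lay far above EGI-1. The level was 105 ± 15.8 CPM in HuCC-A1 and 55.4 ± 16.4 CPM in HuCC-T1 tumors (SD, n = 5). Against EGI-1, the ratio from the summed counts was 9627 for HuCC-A1 (95% counting interval 2665 to 79503) and 5109 for HuCC-T1 (1414 to 42197). These intervals also leave out the spread between tumors. The fitted log2 fold changes were 12.78 (SE 0.44, adjusted p = 7.5e-13, edgeR) and 11.86 (SE 0.44, adjusted p = 1.87e-12, edgeR), and without EGI-1 replicate 1 they were 14.70 and 13.79. COL4A5 was 1.89-fold higher in HuCC-A1 than in HuCC-T1 tumors (log2 fold change 0.92, SE 0.22, adjusted p = 0.0019, edgeR).

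COL4A6, its partner in the network of smooth muscle and skin, was abundant in HuCC-A1 tumors alone among the 3 models. It had 59.3, 69.1, 53.8, 63.1 and 55.3 CPM in HuCC-A1 replicates 1 to 5, a 1.28-fold range that was the narrowest of any of these genes in any model. HuCC-T1 tumors had 3.13, 1.17, 1.31, 1.06 and 4.95 CPM, and EGI-1 tumors had 0, 10, 1, 2 and 0 counts. The 3 models did not overlap. COL4A6 was 25.7-fold higher in HuCC-A1 than in HuCC-T1 tumors (log2 fold change 4.68, SE 0.48, adjusted p = 3.57e-07, edgeR). Against EGI-1, the ratio from the counts was 832 for HuCC-A1 (95% counting interval 486 to 1563) and 33.9 for HuCC-T1 (19.6 to 64.4). These intervals leave out the spread between tumors, and 10 of the 13 EGI-1 counts were in replicate 2. The fitted log2 fold changes were 9.63 (SE 0.66, adjusted p = 2.5e-09, edgeR) and 4.95 (SE 0.65, adjusted p = 6.51e-06, edgeR), and without EGI-1 replicate 2 they were 11.27 and 6.61.

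The ratio of the paired chains within a tumor needs no scaling between libraries. Where a chain is at or near 0 counts, though, the added pseudocount makes the ratio depend on the depth of the library. It was taken as log2 of the counts per kb of the principal transcript, with a pseudocount of 0.5 counts, and compared with 9 two-sided exact permutation tests, adjusted over the 9. With 5 tumors against 5, the smallest p these tests can give is 0.00794. The log2 ratio of COL4A5 over COL4A6 was 0.51, 0.61, 0.96, 1.04 and 1.02 in HuCC-A1 replicates 1 to 5, and 4.62, 5.28, 5.52, 4.98 and 3.70 in HuCC-T1. By the median ratio, COL4A5 was 1.95 times as abundant as COL4A6 in HuCC-A1 tumors and 31.6 times as abundant in HuCC-T1 tumors. The difference of means was -3.99 (exact permutation test, adjusted p = 0.0143), with no overlap between the 10 tumors. EGI-1 tumors held too few counts of both genes to give a ratio with meaning (mean -1.16 ± 2.52, SD, n = 5). The tests that include it gave a difference of 1.99 for HuCC-A1 (exact permutation test, adjusted p = 0.127) and 5.98 for HuCC-T1 (exact permutation test, adjusted p = 0.0143).

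The other pairs were nearest to balance in HuCC-T1 tumors. COL4A1 over COL4A2 had a mean log2 ratio of -0.51 ± 0.86 there (SD, n = 5), with 4 tumors between -0.17 and -0.09 and replicate 4 at -2.05. EGI-1 tumors had -6.19 ± 1.17 and HuCC-A1 tumors -2.82 ± 1.85. HuCC-T1 differed from EGI-1 by 5.68 (exact permutation test, adjusted p = 0.0143) and HuCC-A1 differed from EGI-1 by 3.37 (exact permutation test, adjusted p = 0.0357), which rests on 9 and 3 counts of COL4A1. HuCC-A1 against HuCC-T1 did not pass after adjustment (difference -2.31, exact permutation test, adjusted p = 0.0625), with few counts behind the HuCC-A1 values. With 0 counts of COL4A1 in 4 of 5 EGI-1 tumors, the sizes depend on the pseudocount, and with 2 counts in place of 0.5 the 3 differences were 4.04, 2.72 and -1.32. For COL4A3 over COL4A4, HuCC-T1 tumors had -1.36 ± 1.41, HuCC-A1 tumors -3.27 ± 0.62 and EGI-1 tumors -5.60 ± 1.02. EGI-1 was lower than HuCC-A1 by 2.34 and than HuCC-T1 by 4.24 (exact permutation test, adjusted p = 0.0143 for both). The difference between HuCC-A1 and HuCC-T1 was -1.90 (exact permutation test, adjusted p = 0.051).

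**Figure D3:**
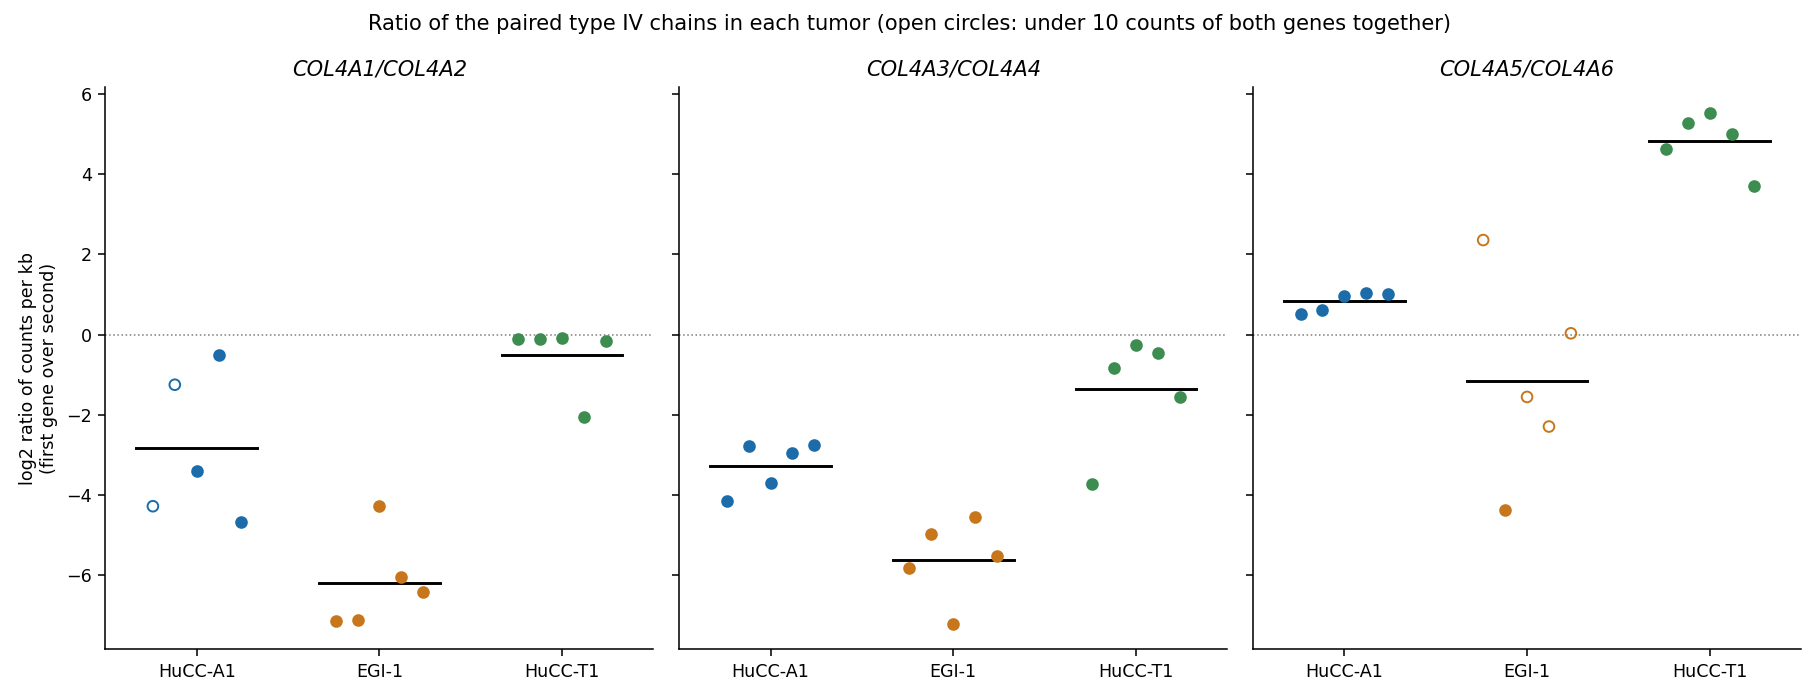
Log2 ratio of counts per kb of the paired type IV collagen genes in each tumor (points), with the mean of each model as a line and tumors with under 10 counts of both genes together as open circles. The COL4A5/COL4A6 points of HuCC-A1 lie between 0.51 and 1.04 and those of HuCC-T1 between 3.70 and 5.52, while the EGI-1 points are scattered and mostly open.

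As a share of all type IV chain counts per kb, COL4A5 took 58.6 ± 3.48% and COL4A6 33.3 ± 4.55% in HuCC-A1 tumors (SD, n = 5). COL4A5 took 78.1 ± 7.06% in HuCC-T1 tumors, where each other chain had a mean of 3.08 to 5.65%. COL4A4 made up 83.3 ± 8.49% and COL4A2 13.7 ± 7.72% in EGI-1 tumors. These EGI-1 shares are of a small total, since the summed type IV level was 1.37 to 2.30 CPM per kb there, 23.6 to 31.2 in HuCC-A1 and 7.55 to 13.4 in HuCC-T1, with no overlap between the models. The shares depend on the transcript length used. With the length of all annotated exons of a gene, COL4A2 had 5.30% in EGI-1 tumors, COL4A4 had 92.0% there, and COL4A5 had 50.3% in HuCC-A1 and 74.6% in HuCC-T1 tumors.

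**Figure D4:**
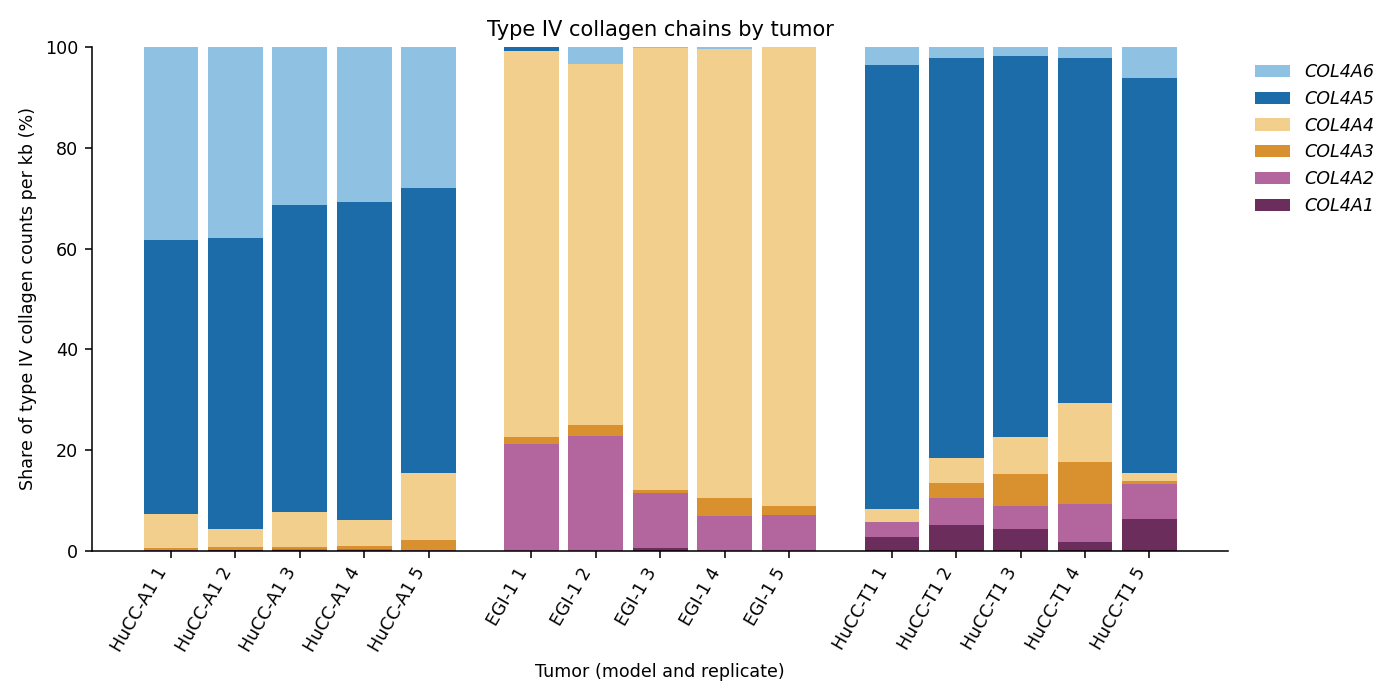
Share (%) of each type IV collagen gene in the summed type IV counts per kb, stacked for each tumor. COL4A5 and COL4A6 fill most of the HuCC-A1 bars, COL4A4 and COL4A2 the EGI-1 bars, and COL4A5 the HuCC-T1 bars, of which the share of COL4A5 ranges from 68.6 to 88.2%.

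COL18A1, the source of endostatin, differed between all models in a graded way. It had 23.9, 37.1, 24.3, 15.8 and 28.0 CPM in HuCC-A1 replicates 1 to 5, and 72.6, 53.3, 71.9, 36.3 and 48.2 CPM in EGI-1 tumors. HuCC-T1 tumors had 131, 87.4, 135, 195 and 116 CPM. All HuCC-T1 tumors were above all others, and HuCC-A1 replicate 2 was slightly above EGI-1 replicate 4. COL18A1 was 2.19-fold lower in HuCC-A1 tumors than in EGI-1 (log2 fold change -1.13, SE 0.24, adjusted p = 0.000756, edgeR). It was 5.15-fold lower in HuCC-A1 than in HuCC-T1 tumors (log2 fold change -2.36, SE 0.25, adjusted p = 5.27e-07, edgeR) and 2.35-fold higher in HuCC-T1 than in EGI-1 tumors (log2 fold change 1.23, SE 0.24, adjusted p = 0.000394, edgeR). SLC19A1, a folate carrier gene on the opposite strand, shares 16.4% of the exon bases of COL18A1 and had 10.8 ± 2.43, 25.4 ± 1.87 and 12.0 ± 4.21 CPM in HuCC-A1, EGI-1 and HuCC-T1 tumors (SD, n = 5). The strand setting of the counting is not given in the sources used here, and how far shared reads enter either gene was not tested.

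COL15A1, the closest relative of COL18A1, was close to the detection limit. It had 10, 10, 15, 9 and 8 counts in EGI-1 replicates 1 to 5 and 2, 2, 0, 6 and 2 counts in HuCC-A1 tumors. HuCC-T1 tumors had 7 counts in replicate 1 and 0 in the other 4. After TMM scaling, the EGI-1 level (0.284 ± 0.0531 CPM, SD, n = 5) was above that of HuCC-A1 in every tumor. HuCC-A1 was lower by a difference of -0.199 CPM (two-sided exact permutation test, p = 0.00794, adjusted over 3 tests 0.0238). Over unscaled totals this difference was -0.180 CPM (two-sided exact permutation test, unadjusted p = 0.0159). HuCC-T1 against EGI-1 gave -0.239 CPM (two-sided exact permutation test, p = 0.0159, adjusted 0.0238). HuCC-A1 against HuCC-T1 gave 0.0403 CPM (two-sided exact permutation test, p = 0.444), and without HuCC-T1 replicate 1 the unadjusted p of this comparison was 0.0476.

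NID1, the linker between laminin and type IV collagen, was low and variable. It had 1.41, 0.250, 0.479, 0.322 and 0.0306 CPM in HuCC-A1 replicates 1 to 5, and 5, 0, 7, 0 and 1 counts in EGI-1 tumors. HuCC-T1 tumors had 0.319, 1.52, 0.822, 0.635 and 4.01 CPM. HuCC-T1 lay above EGI-1 in every tumor, and HuCC-A1 overlapped both. NID1 was higher in HuCC-T1 than in EGI-1 tumors (log2 fold change 4.32, SE 0.99, adjusted p = 0.00142, edgeR), with 3.50 and an adjusted p of 0.00641 without HuCC-T1 replicate 5. HuCC-A1 against EGI-1 passed narrowly (log2 fold change 2.78, SE 0.98, adjusted p = 0.0229, edgeR), and the call was lost without HuCC-A1 replicate 1 (1.90, adjusted p = 0.111) and without EGI-1 replicate 2, 4 or 5 (adjusted p = 0.0503, 0.0511 and 0.0521). HuCC-A1 against HuCC-T1 did not pass (log2 fold change -1.54, SE 0.84, adjusted p = 0.126, edgeR). Without HuCC-A1 replicate 1 it was -2.42 with an adjusted p of 0.029, and without HuCC-T1 replicate 5 it was -0.73. HuCC-T1 replicate 5 was also the highest tumor of its model for COL4A1, COL4A2 and COL4A6.

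HSPG2 was the steady member of the group. It had 287, 203, 141, 230 and 233 CPM in HuCC-A1 replicates 1 to 5 and 216, 264, 248, 319 and 407 CPM in EGI-1 tumors. HuCC-T1 tumors had 152, 344, 273, 406 and 270 CPM. The models overlapped throughout. LDLRAD2, on the opposite strand, shares 11.7% of the exon bases of HSPG2 and had at most 1.57 ± 0.594 CPM (SD, n = 5) in any model. The log2 fold changes were -0.41 (SE 0.24, adjusted p = 0.161) for HuCC-A1 against EGI-1, -0.40 (SE 0.24, adjusted p = 0.167) for HuCC-A1 against HuCC-T1 and -0.01 (SE 0.24, adjusted p = 0.983) for HuCC-T1 against EGI-1, from edgeR. The second passed without HuCC-T1 replicate 1 (-0.62, adjusted p = 0.0203). HSPG2 made up 41.4 to 61.0% of the summed CPM of the 10 genes in HuCC-A1, 71.3 to 85.2% in EGI-1 and 41.0 to 69.9% in HuCC-T1 tumors.

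Per length of the principal transcript, the order of the genes differed between models. In HuCC-A1 tumors COL4A5 (16.3 ± 2.45 CPM per kb, SD, n = 5), HSPG2 (15.3 ± 3.70) and COL4A6 (9.15 ± 0.939) came first, and each overlapped the next in its tumors. COL18A1 (4.36 ± 1.31) and COL4A4 (1.99 ± 1.14) followed and overlapped each other, and the other 5 genes had at most 0.232 CPM per kb. EGI-1 tumors had a clear order of HSPG2 (20.3 ± 5.22), COL18A1 (9.53 ± 2.65), COL4A4 (1.60 ± 0.495) and COL4A2 (0.234 ± 0.0818), with no overlap between neighbors. In HuCC-T1 tumors COL18A1 (22.4 ± 6.64), HSPG2 (20.2 ± 6.64) and COL4A5 (8.61 ± 2.56) came first and overlapped in this order. COL4A2, COL4A4, COL4A1, COL4A6, COL4A3 and NID1 lay between 0.249 and 0.574 CPM per kb there, and each overlapped the next.

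Genes that work with these proteins were taken from lists chosen with earlier results of these data known, and their counts stand beside the background of 55.4, 56.3 and 52.3% of all tested genes called in HuCC-A1 against EGI-1, HuCC-A1 against HuCC-T1 and HuCC-T1 against EGI-1. Of 20 genes listed under collagen modification, assembly and export, 10 were higher in HuCC-A1 tumors than in EGI-1, 7 were lower and 3 did not pass, with a median log2 fold change of 0.41 against 0.06 over all genes. The list is broad and includes COL4A3BP among the higher and QSOX1 among the lower genes, whose tie to collagen is less direct. The counts were 6 higher, 6 lower and 8 not passed in HuCC-A1 against HuCC-T1, and 7, 3 and 10 in HuCC-T1 against EGI-1. P3H2, a prolyl 3-hydroxylase that acts on type IV collagen, had 149 ± 35.8 CPM in HuCC-A1, 68.4 ± 10.3 in HuCC-T1 and 0.105 ± 0.117 in EGI-1 tumors (SD, n = 5). Its log2 fold changes were 10.50 for HuCC-A1 and 9.37 for HuCC-T1 against EGI-1 and 1.13 for HuCC-A1 against HuCC-T1 (adjusted p = 1.77e-12, 6.55e-12 and 0.000578, edgeR). PXDN encodes peroxidasin, which forms the sulfilimine bonds between type IV collagen molecules, and had 0.183 ± 0.205, 8.68 ± 1.86 and 15.1 ± 3.28 CPM in HuCC-A1, EGI-1 and HuCC-T1 tumors. It was lower in HuCC-A1 than in EGI-1 (log2 fold change -5.51, adjusted p = 8.37e-08) and than in HuCC-T1 tumors (-6.31, adjusted p = 2.33e-08, edgeR). The related hydroxylase P3H3 had 18.2 ± 4.59, 5.36 ± 2.20 and 0.0572 ± 0.0772 CPM in the same order. COLGALT2, which adds sugars to collagen, was lower in HuCC-A1 tumors than in EGI-1 (log2 fold change -1.88, adjusted p = 0.0161), and the collagen proline hydroxylase subunit P4HA1 was lower in HuCC-A1 than in HuCC-T1 tumors (-2.79, adjusted p = 5.51e-08, edgeR). The lysyl hydroxylases PLOD2 (log2 fold change 2.57, adjusted p = 3.11e-07) and PLOD1 (-1.15, adjusted p = 0.000233, edgeR) went opposite ways in HuCC-T1 against EGI-1 tumors.

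Laminins form the other network of the basement membrane. Of 12 laminin chain genes, 9 were tested, of which 7 were higher and none was lower in HuCC-A1 tumors than in EGI-1, with a median log2 fold change of 1.04, where 29.4% of all tested genes were higher and 26.0% lower. In HuCC-A1 against HuCC-T1, 4 were higher and 1 was lower, and in HuCC-T1 against EGI-1, 5 were higher and 1 was lower, against 56.3% and 52.3% of all tested genes called in either direction. LAMC1, the common gamma chain, had 537 ± 130, 157 ± 22.5 and 342 ± 70.6 CPM in HuCC-A1, EGI-1 and HuCC-T1 tumors. LAMB1, the common beta chain, was higher in HuCC-A1 tumors than in EGI-1 (log2 fold change 1.77, adjusted p = 5.59e-07, edgeR). LAMA3, an alpha chain of epithelial laminin, was higher in HuCC-T1 than in EGI-1 tumors (log2 fold change 1.99, adjusted p = 1.26e-05, edgeR) and lower in HuCC-A1 than in HuCC-T1 tumors (-0.85, adjusted p = 0.0122). LAMA5, the broadly expressed epithelial alpha chain, was higher in HuCC-A1 than in HuCC-T1 tumors (0.89, adjusted p = 0.000343).

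Of 17 other components of the basement membrane zone, 16 were tested. The counts were 7 higher and 5 lower in HuCC-A1 against EGI-1, 6 and 5 in HuCC-A1 against HuCC-T1, and 6 and 5 in HuCC-T1 against EGI-1, beside backgrounds of 55.4, 56.3 and 52.3% called. EFEMP1, a fibulin, had 393 ± 59.8, 0.0121 ± 0.027 and 123 ± 30.7 CPM in HuCC-A1, EGI-1 and HuCC-T1 tumors, the same order of models as COL4A5. FBLN1, fibulin 1, had 10.6 ± 2.51, 127 ± 33.9 and 270 ± 63.4 CPM, the same order as COL18A1. COL7A1, the anchoring fibril collagen, also had its lowest level in HuCC-A1 tumors (log2 fold changes -1.32 against EGI-1 and -2.44 against HuCC-T1, adjusted p = 0.000827 and 2.47e-06, edgeR). FRAS1, a protein of the epithelial basement membrane, was higher in HuCC-A1 than in HuCC-T1 tumors (4.79, adjusted p = 5.45e-11), and its partner FREM2 was higher in HuCC-A1 and HuCC-T1 than in EGI-1 tumors (9.62 and 10.95, adjusted p = 7.56e-05 and 2.53e-05), with 29.4 ± 45.1 CPM in HuCC-T1. NTN4, a laminin-binding netrin, was lower in HuCC-T1 than in EGI-1 tumors (-1.13, adjusted p = 1.23e-05), and SMOC2 had 10.4 ± 5.49 CPM in HuCC-A1, 2.86 ± 1.41 CPM in EGI-1 and 0 counts in all HuCC-T1 tumors.

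Among 15 cell surface receptors of the basement membrane, 3 were higher and 5 lower in HuCC-A1 tumors than in EGI-1, 5 and 7 in HuCC-A1 against HuCC-T1, and 4 and 4 in HuCC-T1 against EGI-1, with 55.4, 56.3 and 52.3% of all tested genes called. ITGA1, part of an integrin that binds type IV collagen, had 38.2 ± 14.4, 9.71 ± 1.38 and 11.0 ± 6.29 CPM in HuCC-A1, EGI-1 and HuCC-T1 tumors. BCAM, a receptor of laminin alpha 5, was higher in HuCC-A1 tumors than in EGI-1 (log2 fold change 1.73, adjusted p = 0.000318) and HuCC-T1 tumors (1.75, adjusted p = 0.000291, edgeR). ITGAV and ITGB5, which together form an integrin for vitronectin, were lower in HuCC-A1 than in EGI-1 (-2.91 and -2.27, adjusted p = 5.7e-08 and 9.7e-10) and than in HuCC-T1 tumors (-4.76 and -2.72, adjusted p = 4.61e-10 and 1.55e-10, edgeR). ITGA2, part of a collagen receptor, was higher (0.92, adjusted p = 0.00646) and the syndecans SDC1 and SDC4 were lower (-1.21 and -0.94, adjusted p = 2.38e-05 and 0.000525, edgeR) in HuCC-T1 than in EGI-1 tumors.

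Of 14 genes that degrade or trim the basement membrane, 7 were higher and 6 lower in HuCC-A1 tumors than in EGI-1, 6 and 8 in HuCC-A1 against HuCC-T1, and 6 and 5 in HuCC-T1 against EGI-1, where 55.4, 56.3 and 52.3% of all tested genes were called. The type IV collagenase MMP2 had 0.0301 ± 0.0376, 0.849 ± 0.572 and 127 ± 125 CPM in HuCC-A1, EGI-1 and HuCC-T1 tumors, with an SD in HuCC-T1 that is nearly the mean. The other type IV collagenase, MMP9, was higher in HuCC-T1 than in EGI-1 tumors (log2 fold change 10.99, adjusted p = 5.77e-07, edgeR), with 41.5 ± 52.8 CPM, and in HuCC-A1 tumors than in EGI-1 (5.48, adjusted p = 0.00134) at 0.909 ± 1.10 CPM. MMP7, matrilysin, had 1.24 ± 1.46, 30.6 ± 5.96 and 1007 ± 229 CPM in the order of models above. SULF1 and SULF2, which remove sulfate groups from heparan sulfate chains such as those of perlecan, went opposite ways in HuCC-A1 against EGI-1 tumors (6.20 and -6.20, adjusted p = 2.5e-09 and 2.83e-12, edgeR). HPSE, heparanase, was higher in HuCC-A1 than in HuCC-T1 tumors (2.70, adjusted p = 1.56e-07), and the cathepsins CTSL and CTSV were lower in HuCC-T1 than in EGI-1 tumors (-1.54 and -2.53, adjusted p = 9.05e-05 and 1.15e-06).

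To describe which genes share the pattern of a member over all 15 tumors, protein-coding genes were ranked by the root mean square difference of centered log2(CPM + 0.5), where a smaller value means a more similar profile. P3H2 was nearest to COL4A5 (0.43), followed by RAB34 (0.62). FEZ1 (0.43) and PPP4R4 (0.44) were nearest to COL4A6, with 79.5 and 46.8 CPM in HuCC-A1 tumors and less than 2 CPM in the other models. COL18A1 was followed by IFITM2 (0.34) and APOL2 (0.35), COL4A1 by CDK6 (0.44) and MPP6 (0.48), and COL4A2 by NLN (0.31) and TTC12 (0.34). LIPH (0.42) and FA2H (0.45) were nearest to COL4A4, ZBTB37 (0.63) and LONRF3 (0.65) to COL4A3, CEP128 and PDIA5 (both 0.49) to NID1, and IFNAR1 (0.24) and QKI (0.25) to HSPG2. These values cannot be compared between members, since the root mean square deviation of the member itself differed. It was 3.42 for COL4A5 and 2.85 for COL4A6, but 0.87 for NID1 and 0.43 for HSPG2. The 0.5 CPM added also flattens members at low levels, such as COL4A1 and NID1. CDK6, nearest to COL4A1, had 119, 84.3 and 644 CPM in HuCC-A1, EGI-1 and HuCC-T1 tumors. Genes that differ between models mostly follow 1 of few orders of the 3 models, so likeness of this kind is a description only.

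The epithelial nature of the tumors showed in EPCAM, KRT7, KRT8, KRT18, KRT19 and SOX9, whose summed level was 4720 to 7163 CPM in HuCC-A1, 14212 to 25495 CPM in EGI-1 and 6212 to 17780 CPM in HuCC-T1 tumors. KRT7 alone among them was called lower in EGI-1 than in the other models. It had 1058 ± 370 CPM in HuCC-A1, 55.2 ± 17.1 CPM in EGI-1 and 2107 ± 766 CPM in HuCC-T1 tumors (SD, n = 5). Host cells that make type IV collagen, nidogen and perlecan could add reads if mouse RNA aligns to human genes, and whether mouse reads were removed is not given in the sources used here. Of 8 endothelial markers, the summed level was 16.0 to 31.9 CPM in HuCC-A1, 3.53 to 4.54 CPM in EGI-1 and 13.4 to 25.0 CPM in HuCC-T1 tumors. In the order HuCC-A1, EGI-1 and HuCC-T1, PECAM1 had 7.94 ± 1.53, 1.94 ± 0.830 and 14.6 ± 4.91 CPM and VWF 15.9 ± 6.53, 1.56 ± 0.787 and 1.49 ± 0.878 CPM (SD, n = 5), and together they held most of these sums. CDH5, KDR, TEK, ERG, CLDN5 and TIE1 had means under 1 CPM in HuCC-A1 and EGI-1, and in HuCC-T1 KDR was at 0 and CDH5 had 2.52 ± 0.862 CPM (SD, n = 5). The 9 markers of fibroblasts and pericytes summed to 426 to 950 CPM in HuCC-A1, 74.7 to 128 CPM in EGI-1 and 99.5 to 506 CPM in HuCC-T1 tumors. COL3A1 (637 ± 245 CPM) held most of the sum in HuCC-A1 and COL1A1 (375 ± 165 CPM) in HuCC-T1, while PDGFRA, PDGFRB and THY1 had means under 1 CPM in all models. COL1A2, DCN, LUM and RGS5 had means of at most 8.52 CPM in any model, the highest being COL1A2 in HuCC-T1. COL1A2 had 0.108 ± 0.137 CPM in EGI-1 tumors. The sums are thus mostly those of a single collagen gene and do not measure fibroblasts. The 5 leukocyte markers summed to 11.3 to 39.0, 0.384 to 1.89 and 2.08 to 5.10 CPM in HuCC-A1, EGI-1 and HuCC-T1 tumors, most of it ITGAM in HuCC-A1, and TYROBP was at 0 in EGI-1 and HuCC-T1. The sums of the endothelial, fibroblast and leukocyte markers had their lowest medians in EGI-1 tumors, but single markers went other ways, such as COL1A1, with 17.5 ± 4.43 CPM in HuCC-A1 tumors against 84.4 ± 18.6 CPM in EGI-1, and CLDN5, with 0.0221 ± 0.0349 CPM against 0.269 ± 0.0960 CPM (SD, n = 5). The part of host cells in the levels of the 10 genes was not tested.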

How the data were processed

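The 15 vehicle-treated CDX tumors were grouped by the cell line in their labels, with 5 tumors per line. The authors deposited raw counts per gene. The labels name CASAVA, HISAT2 version 2.0.5, featureCounts version 1.5.0-p3 and GRCh38. How reads of mouse cells were handled is not given in the sources used here, and neither are the annotation, the strand setting, a batch or a date. All 58735 identifiers were found in GENCODE release 29, which gave symbols, coordinates and lengths (principal transcript, or all exons as an alternative).

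The quasi-likelihood F test of edgeR 4.0.16 (R 4.3.3) was run after filterByExpr and TMM scaling in 1 fit of 15 tumors (12 residual degrees of freedom, prior count 0.125), adjusted over 21019 genes. The treatment label gives 5 mice, naming HuCC-A1 and EGI-1 but not HuCC-T1, and the labels do not tie each tumor to its own animal, so p-values cover only the spread between these tumors, which may in part be technical. Tumors of a model differed by more than counting noise (chi-square per degree of freedom 33.6 to 185 over pairs of tumors). HuCC-T1 replicate 1 had 111 to 185 against the other tumors of its model, which had 35.7 to 123 among themselves. COL15A1 and the chain ratios were tested with exact permutation tests (scipy 1.17.1). The fit was tested on simulated data.

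The 10 genes and the gene lists were chosen with earlier results of these data known. All 10 genes were named, and from each list, in each comparison, the 2 called genes with the largest rise and the 2 with the largest fall among those whose mean log2 CPM was 1 or more, together with the 2 nearest profiles of each gene with a mean of at least 1 CPM in a model. Some comparisons of the listed genes were left out for length, 1 named gene is not reported here, and marker genes are given by their sums. Alternatives were RLE factors, other filters on low counts, only the 10 tumors compared, DESeq2 1.42.0, a replicate block, limma-voom (limma 3.58.1), a pseudocount of 2 counts, CPM over unscaled totals for COL15A1 (chosen after seeing the data) and leaving out each tumor. Figures were drawn with matplotlib 3.10.9.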

Additional observations from a re-analysis of the deposited data

Results flagged for a closer look

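In 7 of 30 sets of 5 tumors (10 genes in 3 models), the highest tumor stood apart from the other 4 by more than 0.71 of the range of the set, which is Dixon's critical value. Chance alone marks about 1 in 20 such sets, and sets in which most tumors are at 0 counts are marked by a single count. HuCC-A1 replicate 5 stood apart in both genes of 1 pair, with 4.75 CPM of COL4A3 and 39.7 CPM of COL4A4. The other 5 values were low counts. COL4A1 had 0.225 CPM (7 counts) in HuCC-A1 replicate 4 and 0.0690 CPM (3 counts) in EGI-1 replicate 3. COL4A5 had 0.0609 CPM (2 counts) in EGI-1 replicate 1, COL4A6 had 0.302 CPM (10 counts) in EGI-1 replicate 2, and COL15A1 had 0.224 CPM (7 counts) in HuCC-T1 replicate 1. The source of these reads was not tested.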

How the results depend on the processing

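Of 169 fold changes of the tested genes under other settings, 162 kept their direction and their side of the threshold, as did 257 of 270 when 1 tumor was left out. With at least 10 counts required in each library, only COL4A4, COL18A1 and HSPG2 could be tested. Of these, 1, 2 and 2 were called in HuCC-A1 against EGI-1, HuCC-A1 against HuCC-T1 and HuCC-T1 against EGI-1. In that setting 8004, 8222 and 8050 of all 13786 tested genes were called. The direction of HSPG2 in HuCC-T1 against EGI-1 turned, at log2 fold changes of 0.018 (RLE factors), 0.0065 (no filter), 0.022 (10 counts in each library), 0.0030 (10 tumors) and 0.016 (DESeq2), and ranged from -0.16 to 0.19 when 1 tumor was left out. COL4A3 in HuCC-A1 against HuCC-T1 turned to 0.096 with limma-voom. COL4A4 in HuCC-A1 against EGI-1 ranged from -0.10 to 0.47 when 1 tumor was left out. NID1 in HuCC-A1 against EGI-1 had an adjusted p of 0.0725 with limma-voom and of 0.00571 to 0.111 over all alternatives. By unadjusted p, the COL4A5/COL4A6 ratio of HuCC-A1 against EGI-1 passed with a pseudocount of 2 counts (difference 1.43, exact permutation test, p = 0.0397) and ranged from 1.19 to 2.87 when 1 tumor was left out. Leaving out 1 tumor, the differences of HuCC-A1 against HuCC-T1 ranged from -2.89 to -1.85 for COL4A1/COL4A2 and from -2.49 to -1.63 for COL4A3/COL4A4, on both sides of the threshold. The cause of these other changes was not tested. Replicate numbers did not pair the tumors (correlations of deviations -0.0995 to 0.155, own number best in 4 of 15), and a replicate block gave 11377, 11554 and 10705 called genes and 6, 6 and 8 called members of the 9.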
